A study of Rattus norvegicus with 6 samples.

Results

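The 4 genes described here, *Gcg*, *Irx1*, *Irx2* and *Ttr*, are among the genes by which pancreatic alpha cells are recognised, and their accessible sites (ACS) were read in islets of adult and newborn rats. A site belonged to a gene when the deposited annotation listed that gene as its nearest one. This gave 87 of the 101603 distinct ACS of the series, 50 for *Irx1* (gene identifier 306659), 25 for *Irx2* (306657), 6 for *Gcg* (24952) and 6 for *Ttr* (24856). In ATAC-seq the transposase Tn5 cuts accessible DNA and joins sequencing adapters to it, and the deposited value of an ACS is the number of these Tn5 integrations.

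The Adult group had 3 libraries, replicates 4, 5 and 6, each from the islet cells of 1 adult male rat of about 3 months. The P10 group had 3 libraries, replicates 1, 2 and 3, each from a few pooled pups at postnatal day 10, from 3 litters with pups of both sexes. All were Sprague-Dawley rats with no treatment, mutation or transgene named, and the cells were dissociated from hand-picked islets and not sorted. The comparison was made to find chromatin that opens or closes while islets mature after birth. Age, sex and single animals against pooled litters differed together between the groups and cannot be told apart.

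Alpha cells are the glucagon-secreting cells of the islet, and glucagon raises blood glucose by acting on the liver. They share the islet with the more numerous insulin-secreting beta cells, so in whole islets alpha cell chromatin is only a part of what is read. *Gcg* encodes preproglucagon, *Irx1* and *Irx2* encode Iroquois homeodomain transcription factors that mark alpha rather than beta cells and lie beside each other in 1 gene cluster, and *Ttr* encodes transthyretin, a carrier of thyroid hormone and retinol-binding protein that is abundant in alpha cells. In bulk libraries a change in the share of cells of a type and a change in accessibility per cell cannot be told apart.

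The stretches around the starts of *Gcg*, *Irx1* and *Irx2* are shown because an ACS covered each of these starts, and these ACS carry the first result below. They run from 250 bases before to 50 bases after the annotated start, 5′ to 3′ on the strand of the gene, and come from RefSeq on the GRCr8 assembly, in which all 4 genes were found by symbol. The ACS themselves are given in Rn5 coordinates, and no Rn5 sequence was used here. Capitals mark the E-box CAGATG and the TATA box TATAAA on either strand.
Gcg, chr3:67531484-67531783, minus strand: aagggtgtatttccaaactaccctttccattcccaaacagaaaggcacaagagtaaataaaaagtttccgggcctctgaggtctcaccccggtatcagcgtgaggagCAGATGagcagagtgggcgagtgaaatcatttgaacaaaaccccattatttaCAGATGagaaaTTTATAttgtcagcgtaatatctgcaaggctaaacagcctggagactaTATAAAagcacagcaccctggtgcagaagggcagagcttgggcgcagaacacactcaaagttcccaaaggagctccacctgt
Irx1, chr1:33122872-33123171, plus strand: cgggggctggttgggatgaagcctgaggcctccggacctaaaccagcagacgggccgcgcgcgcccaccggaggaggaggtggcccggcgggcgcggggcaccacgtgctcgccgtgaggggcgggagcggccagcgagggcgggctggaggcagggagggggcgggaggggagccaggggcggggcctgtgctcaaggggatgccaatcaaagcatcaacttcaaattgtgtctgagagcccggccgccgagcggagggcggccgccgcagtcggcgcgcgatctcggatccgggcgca
Irx2, chr1:32494881-32495180, minus strand: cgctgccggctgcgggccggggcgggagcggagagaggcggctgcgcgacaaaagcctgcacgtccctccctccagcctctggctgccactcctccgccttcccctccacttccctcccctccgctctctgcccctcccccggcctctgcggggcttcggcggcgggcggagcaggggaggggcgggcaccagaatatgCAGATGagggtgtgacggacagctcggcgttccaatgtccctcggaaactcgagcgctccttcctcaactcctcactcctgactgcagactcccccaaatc

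The *Gcg* promoter held this E-box with its first base at -143 and again at -91 from the start, a TATA box at -32, and a TATA box on the opposite strand at -80. The *Irx2* promoter held 1 such E-box at -51, and the *Irx1* promoter held neither motif. Of 33469 rat promoters of the same length, 16.6% held this E-box and 14.2% the TATA box on either strand. Further motifs were searched on both strands and occurred in none of these 3 stretches. These were the forkhead core TGTTTAC, found in 3.78% of all promoters, the homeodomain core TAATTA, found in 5.36%, and the AP-1 site TGACTCA, found in 4.63%. The cyclic AMP response element TGACGTCA was found in 1.83% of all promoters, the E-box CAGCTG in 15.1% and the GATA core AGATAA in 11.6%. A match describes the letters of the window and is not evidence of a bound factor. The 3 promoters differed in composition, with a GC content of 46.3% for *Gcg*, 74% for *Irx1* and 69.3% for *Irx2*, against a median of 51.7% over all promoters. CpG dinucleotides numbered 6, 35 and 25, against a median of 7. The ACS over the start reached 571 bases before and 200 bases after the start of *Gcg*, 266 and 332 bases for *Irx1*, and 560 and 427 bases for *Irx2*.

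The libraries held 7916919 to 11903909 integrations in ACS in adults and 13491534 to 21168463 in P10 islets. Values below are integrations in CPM (counts scaled to a common library total) after TMM scaling, and fold changes are on the log2 scale with positive values for more integrations in adults. An ACS was called Up or Down in adults at a p-value under 0.05 and a Benjamini-Hochberg adjusted p (FDR) under 0.2 over all ACS in edgeR's quasi-likelihood test, the limits of the study. Replicates were not repeats of 1 library, since the chi-square per degree of freedom of the 6 same-age pairs was 3.35 to 7.81, and their r over all ACS on the log2 scale was 0.924 to 0.957. The labels do not say more of how replicates were taken than the animals above. The p-values set the difference between the ages against the spread between same-age libraries among these 6. The test estimates that spread partly from all ACS.

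Of the 87 ACS of the alpha cell genes, 20 (23.0%) were called Up and 3 (3.45%) Down in adults, where 12.3% of all ACS were called Up and 6.63% Down. The Iroquois genes, which held 75 of the 87 sites, had 19 of the Up calls, with 13 of 50 sites at *Irx1* and 6 of 25 at *Irx2*. *Ttr* had 1 of 6 and *Gcg* 0 of 6. The Down calls were 1 each at *Irx1*, *Irx2* and *Gcg*. The 3 adult libraries were all higher than the 3 P10 libraries at 21 of the 87 sites and all lower at 5, where 13.8% of all ACS showed the first order and 10.9% the second. The median log2 fold change was 0.34 over the *Irx1* sites, 0.23 over the *Irx2* sites, -0.21 over the *Gcg* sites, -0.04 over the *Ttr* sites and -0.01 over all ACS.

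These directions are relative to the scaling. When the total reads of each library replaced the integrations in ACS as library sizes, the median of all ACS moved to -0.84, and 2 of the 87 sites were then called Up and 42 Down, where 1.05% of all ACS were Up and 60.7% Down. In every fit made, the median of the *Irx1* sites was above the median of all ACS by 0.24 to 0.43, and that of the *Irx2* sites by 0.16 to 0.33. That of the *Gcg* sites differed from it by -0.35 to -0.05 and that of the *Ttr* sites by -0.11 to 0.12.

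**Figure D1:**
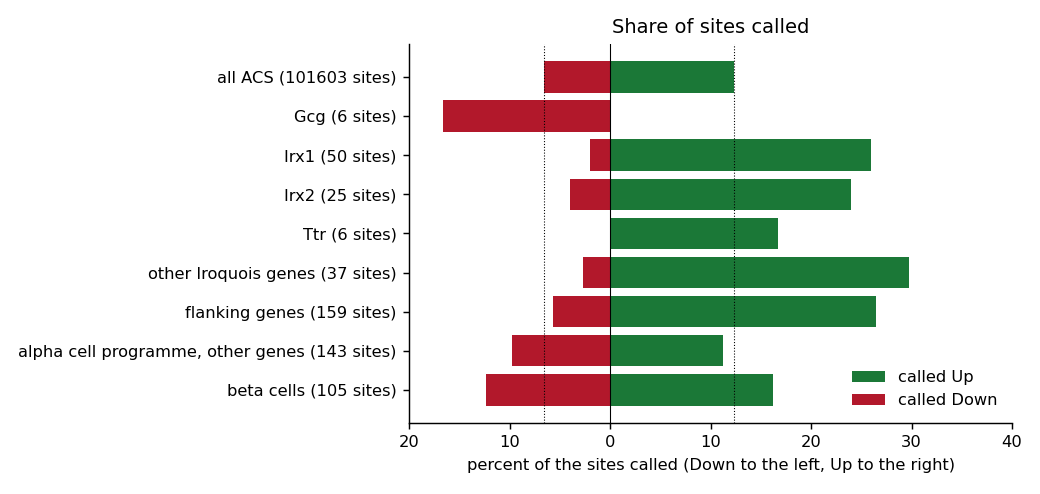
Percent of the ACS of each gene or gene list called Up (green, to the right) or Down (red, to the left) in adults, with dotted lines at the shares of all ACS. *Irx1* and *Irx2* reached 26% and 24% Up, *Gcg* had 1 Down site and no Up site among 6, and *Ttr* had 1 Up site among 6; with total reads as library sizes, 2 of the 87 alpha cell sites were Up and 42 Down, against 1.05% and 60.7% of all ACS.

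The gene starts gave no call with TMM scaling. With total reads as library sizes calls did appear there, as at the *Gcg* start. It was then Down (log2 fold change -1.08, adjusted p = 0.00852 from edgeR's quasi-likelihood test), where 60.7% of all ACS were Down. In the main fit with TMM, none of the 4 ACS classed as TSS sites of these genes passed the limits (0 also at an unadjusted p under 0.05 and in limma voom and DESeq2). Their log2 fold changes there ran from -0.23 to 0.00, while 2.73% of all TSS-class ACS were called Up and 7.87% Down. Of the 7 proximal sites 1 was Up, where 11.2% of all proximal ACS were Up and 6.71% Down. Of the 76 distal sites 19 were Up and 3 Down. Over all distal ACS, 13.8% were Up and 6.45% Down. The classes follow the distance to the gene start, and a distance below is counted from the gene start to the first base of the ACS in the annotation.

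**Figure D2:**
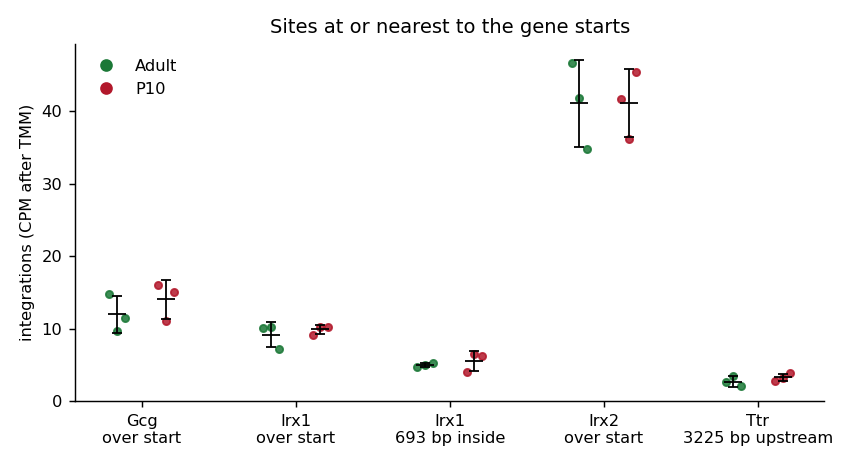
Integrations (CPM after TMM scaling, linear axis from 0) in each library at the ACS over the starts of *Gcg*, *Irx1* and *Irx2*, at the second TSS-class site of *Irx1* and at the site nearest to the annotated *Ttr* start; points are libraries, and bars the mean and SD of 3. Adult and P10 points overlapped at all 5 sites, and the *Irx2* start, with a mean of 41.1 CPM at both ages, was the most accessible of them.

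Among the transcription factors, the *Irx2* start was the most accessible. This ACS (chr1:34687793-34688779, 987 bp) held 46.6, 41.8 and 34.8 CPM in adult replicates 4, 5 and 6 and 41.7, 36.2 and 45.5 CPM in P10 replicates 1, 2 and 3. Both ages covered the same range. The means were 41.1 ± 5.94 and 41.1 ± 4.68 CPM (SD, n = 3), and the 95% interval of the log2 fold change ran from -0.34 to 0.34 (adjusted p = 0.999 from edgeR's quasi-likelihood test). A change of a size within this interval was not detectable with these libraries.

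The *Irx1* start was covered by a smaller site (chr1:35319629-35320226, 598 bp). It held 10.1, 10.2 and 7.22 CPM in adults and 9.16, 10.3 and 10.3 CPM in P10 islets. Adult replicate 6 was the lowest, and the other libraries were close to each other. Its log2 fold change was -0.10 (95% interval -0.58 to 0.38, adjusted p = 0.868 from the same edgeR test). The other TSS-class site, 693 bp inside the gene, had 5.05 ± 0.25 CPM in adults and 5.63 ± 1.38 CPM in P10 islets (SD, n = 3). Per kilobase of site, the *Irx2* start held 41.6 CPM, the *Irx1* start 16.0 and the *Gcg* start 16.9 over all libraries.

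At *Gcg*, the hormone gene itself (chr3:55108272-55117287, minus strand), adult islets were not more accessible at any of the 6 sites by the limits above. Over all ACS of chromosome 3, 7.99% were called Up and 13.8% Down, with a median log2 fold change of -0.17. The ACS over the start (chr3:55117088-55117858) held 14.8, 9.74 and 11.5 CPM in adults and 16.1, 11.1 and 15 CPM in P10 islets. The ranges overlapped. The log2 fold change was -0.23 (95% interval -0.69 to 0.24, adjusted p = 0.638 from edgeR's quasi-likelihood test), and it stayed within -0.41 to -0.09 in the 6 fits with 1 library omitted.

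The Down site of *Gcg* lay behind the gene, 90 bp past its end (chr3:55107160-55108182). It held 7.5, 5.94 and 6.45 CPM in adults and 15.2, 5.63 and 11.7 CPM in P10 islets. P10 replicate 2 was the lowest of all 6 libraries, so the groups overlapped. The log2 fold change was -0.72 (SE 0.29, adjusted p = 0.125 from edgeR's quasi-likelihood test), and the call was lost without adult replicates 5 or 6 or without P10 replicates 1 or 3, where the values were -0.64, -0.70, -0.41 and -0.68. A site just behind it (chr3:55106721-55107051), shorter and with more integrations per kilobase, held 10.2 ± 2.98 and 9.91 ± 1.05 CPM (SD, n = 3), with a log2 fold change of 0.04. The proximal site 1283 bp upstream of the start had 6.55 ± 1.41 CPM in adults and 7.49 ± 1.16 CPM in P10 islets. The 2 farther upstream sites were weaker, with 0.93 ± 0.70 against 1.16 ± 0.17 CPM and 2.58 ± 0.57 against 2.1 ± 0.34 CPM, and the farthest of them, 17692 bp away, lies within the span of *Fap*, which encodes a membrane serine protease also used as an alpha cell marker.

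At *Ttr* (chr18:15307564-15314777, minus strand) no ACS covered either end of the gene, and its promoter is therefore not shown. The deposited Rn5 annotation gives *Ttr* on the minus strand and RefSeq on GRCr8 gives it on the plus strand. The start, upstream and downstream below follow the deposited annotation, and they would be measured from the other end of the gene if the strand were the opposite one. The nearest site to the annotated start, 3225 bp upstream, was a minor one with 2.73 ± 0.73 CPM in adults and 3.30 ± 0.52 CPM in P10 islets (SD, n = 3). The 2 strongest sites lay downstream. The stronger (chr18:15287627-15288438, 27150 bp from the start) held 123, 97.5 and 124 CPM in adults and 90.8, 71.8 and 78.9 CPM in P10 islets. All adults were higher than all P10 libraries, although adult replicate 5 came close to P10 replicate 1. This site was called Up, with a log2 fold change of 0.51 (SE 0.15, adjusted p = 0.0314 from edgeR's quasi-likelihood test), and the call was lost without P10 replicate 2 (0.41, adjusted p = 0.240 from the same test). It ranked above 99.7% of all distal ACS by mean CPM.

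The position of this site does not tie it to *Ttr* alone. It lies within the span of *B4galt6*, a glycosyltransferase gene, and, like all 6 *Ttr* sites, within the annotated span of LOC100911918. The second strong site, 1079 bp past the gene end, had 32.0 ± 7.22 CPM in adults and 30.0 ± 3.1 CPM in P10 islets (log2 fold change 0.08). Chromosome 18 as a whole had 19.7% of its ACS called Up and 4.38% Down.

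**Figure D3:**
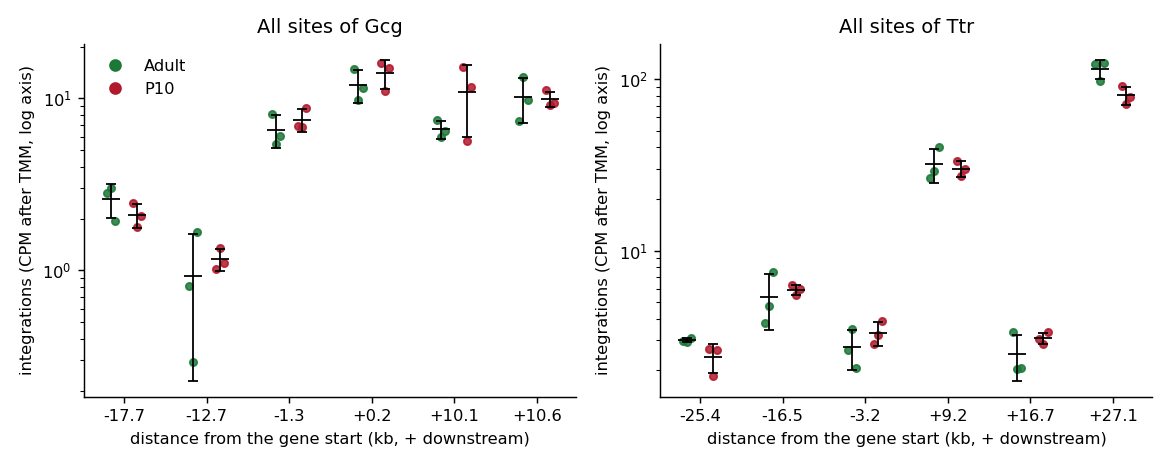
Integrations (CPM after TMM scaling, log axis) in each library at the 6 ACS of *Gcg* (left) and the 6 of *Ttr* (right), in order of distance from the gene start in kb; points are libraries, and bars the mean and SD of 3. Adults were lower on average at the *Gcg* site 10.1 kb downstream, where P10 replicate 2 was nevertheless the lowest of all libraries, and at *Ttr* the adult points lay above the P10 points at the strongest site.

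The Iroquois sites covered a far larger stretch of chromosome 1. *Irx2* (chr1:34682802-34688219, minus strand) and *Irx1* (chr1:35319895-35325724, plus strand) point away from each other, so the sites upstream of either lie between the genes. The sites listed for *Irx1* reached up to 1085452 bp from its start, and those of *Irx2* up to 315283 bp. Whether a site acts on the gene it is listed for was not measured. Together the 75 sites held 19 of the 20 Up calls, with 25.3% of the sites Up and 2.67% Down. Over all ACS of chromosome 1, 8.24% were called Up and 8.16% Down. Over ACS more than 500 kb from the nearest gene, the shares were 11.5% and 5.97%. The neighbouring genes *Irx4*, *Med10* and *Ube2ql1* had 28.7% of their 101 sites called Up and 3.96% Down. The high share of Up calls was therefore not particular to the sites of *Irx1* and *Irx2*. Whether it belongs to the region as a whole was not tested.

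**Figure D4:**
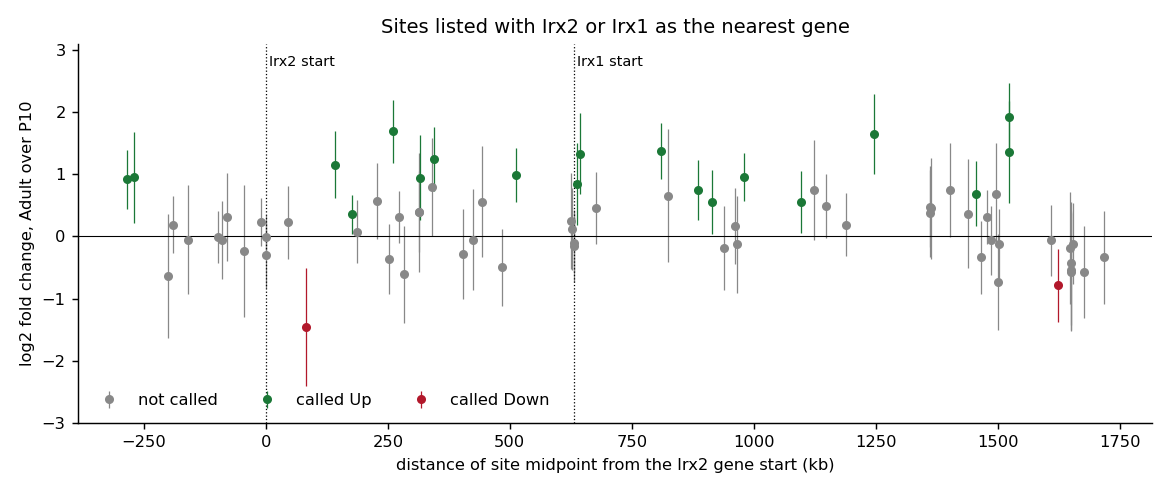
Log2 fold change (adult over P10) of the 75 ACS listed for *Irx2* or *Irx1*, by the distance of the site midpoint from the *Irx2* start in kb along the chromosome; bars are 95% intervals, green points were called Up, red Down and grey not called. The Up sites spread on both sides of both genes, the points at the starts lie near 0, and the sites more than 900 kb past the *Irx1* start are all below 0; with total reads as library sizes the fold changes move down, the median of all ACS to -0.84.

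Between the 2 genes, 6 of 23 sites were Up and 1 Down. The strongest change was 260068 bp upstream of *Irx2* (chr1:34948287-34948587). It held 13.9, 12.0 and 17.3 CPM in adults and 5.11, 4.35 and 3.81 CPM in P10 islets, with a wide gap between the ages. The log2 fold change was 1.69 (SE 0.25, adjusted p = 3.82e-05 from edgeR's quasi-likelihood test). The site 141396 bp upstream of *Irx2* (chr1:34829615-34829998) held 11.7, 8.18 and 8.77 CPM in adults and 5.02, 3.57 and 4.23 CPM in P10 islets. Again no adult library reached down to the P10 range, and the log2 fold change was 1.16 (SE 0.26, adjusted p = 0.00433 from the edgeR test).

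On the *Irx1* side of this interval, 2 sites were Up. The site 287134 bp upstream of *Irx1* (chr1:35032761-35033175) held 10.6, 9.84 and 8.77 CPM in adults and 4.14, 4.14 and 3.96 CPM in P10 islets. The P10 libraries were nearly alike, and all adults were well above them (log2 fold change 1.25, SE 0.25, adjusted p = 0.00139 from the edgeR test). The site 119277 bp upstream (chr1:35200618-35201211) held 21.4, 17.2 and 16.4 CPM in adults and 9.48, 8.27 and 9.94 CPM in P10 islets. It was the third strongest *Irx1* site by mean CPM and also had no overlap (log2 fold change 0.99, SE 0.21, adjusted p = 0.0028 from the edgeR test).

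The most accessible of the 87 sites by mean CPM, 176625 bp upstream of *Irx2* (chr1:34864844-34865861, 1018 bp), had the smallest fold change of the 20 Up sites. It held 154, 113 and 136 CPM in adults and 120, 89.4 and 105 CPM in P10 islets. Replicate 5 was the lowest adult and fell below P10 replicate 1, so the groups overlapped. It was called Up with a log2 fold change of 0.36 (SE 0.15, adjusted p = 0.165 from edgeR's quasi-likelihood test), and the call was lost without adult replicates 4 or 6 or P10 replicates 2 or 3 (0.24 to 0.35). By mean CPM it ranked above 99.8% of all distal ACS. The remaining Up site between the genes, 315283 bp upstream of *Irx2*, had 5.01 ± 2.12 CPM in adults and 2.62 ± 0.52 CPM in P10 islets (SD, n = 3) with overlapping groups. Its call, at 0.94, was lost without adult replicate 4 (0.59) or P10 replicate 3 (0.88).

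The Down site of *Irx2* was a weak one, 81430 bp upstream (chr1:34769649-34769956). Its counts were 3, 10 and 8 in adults and 49, 24 and 39 in P10 islets, or 0.27, 0.97 and 1.03 CPM against 2.28, 1.71 and 2.06 CPM. All adult libraries were lower. The log2 fold change was -1.45 (SE 0.46, adjusted p = 0.0459 from edgeR's quasi-likelihood test), and the call was lost without adult replicate 4 (-1.02, adjusted p = 0.223 from the same test).

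Downstream of *Irx2*, on the side of *Irx4*, 2 of 10 sites were Up and lay close to each other. The site 284674 bp from the start (chr1:34403545-34404275) held 23.1, 12.1 and 19.5 CPM in adults and 8.09, 10.5 and 10.4 CPM in P10 islets. Adult replicate 5 was again the lowest adult, here still above all P10 libraries, and the log2 fold change was 0.92 (SE 0.24, adjusted p = 0.0117 from the edgeR test). The other, 271145 bp away, had 3.50 ± 0.58 and 1.78 ± 0.63 CPM (SD, n = 3), and its call, at 0.95, was lost without adult replicates 4 or 6 or P10 replicates 1 or 2 (0.76 to 0.88). Closer to the gene, the site 11292 bp from the start, the third most accessible of *Irx2*, had 21.9 ± 1.89 CPM in adults and 18.6 ± 2.52 CPM in P10 islets and was not called (log2 fold change 0.23).

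Downstream of *Irx1*, the calls changed with distance. Within 500 kb of the start, 7 of 13 sites were Up and 0 Down, and 11 of the 13 fold changes were positive. From 500 to 900 kb, 4 of 17 were Up and 0 Down. Beyond 900 kb, 0 of 9 were Up and 1 was Down, the 1 site with an unadjusted p under 0.05 there, and all 9 fold changes were negative, with a median of -0.43. These limits of distance were chosen after the values had been seen. The farthest sites were also weaker, with a median of 31.3 counts per library against 66.3 within 500 kb.

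Nearest to the gene, a site 6937 bp from the start and 1108 bp past the gene end (chr1:35326832-35327055) was the only proximal site called. It held 4.79, 5.16 and 5.41 CPM in adults and 3.25, 1.5 and 3.65 CPM in P10 islets. The adults were alike and all higher, and P10 replicate 2 was the lowest by far (log2 fold change 0.85, SE 0.32, adjusted p = 0.109 from the edgeR test). The call was lost without P10 replicate 2 (0.55) or adult replicate 6 (0.81). The site 11908 bp away (chr1:35331803-35332127) held 10.3, 3.8 and 9.80 CPM in adults and 2.93, 3.64 and 2.91 CPM in P10 islets. Adult replicate 5 was close to the P10 libraries there, and the other adults were far above them (log2 fold change 1.33, SE 0.32, adjusted p = 0.00686 from the edgeR test).

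The 2 most accessible sites downstream of *Irx1* were both Up, with no overlap between the ages. The site 347826 bp away (chr1:35667721-35668505, 785 bp), the strongest of the gene, held 25.2, 24.9 and 25.4 CPM in adults and 12.6, 13.3 and 12.95 CPM in P10 islets. The libraries of an age hardly differed, and the log2 fold change was 0.96 (SE 0.19, adjusted p = 0.00121 from edgeR's quasi-likelihood test). The site 177571 bp away (chr1:35497466-35498045) held 21.2, 19.3 and 19.98 CPM in adults and 7.72, 9.49 and 6.19 CPM in P10 islets. Here too the ages were far apart, with a log2 fold change of 1.38 (SE 0.22, adjusted p = 0.000117 from the edgeR test).

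The other Up sites within 500 kb showed smaller changes. They lay 254464, 282493 and 465004 bp from the start, with log2 fold changes of 0.75, 0.56 and 0.55, and at each of them all adult libraries were above all P10 libraries. The call of the first was lost without adult replicate 6 (0.55) or P10 replicate 2 (0.59), that of the second without any 1 library (0.46 to 0.63), and that of the third without adult replicates 4 or 6 or P10 replicates 1 or 2 (0.41 to 0.53).

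The largest change of all 87 sites lay 891017 bp downstream of *Irx1* (chr1:36210912-36211180). It held 13.6, 9.06 and 14.1 CPM in adults and 2.65, 3.14 and 3.86 CPM in P10 islets. The lowest adult was well above the highest P10 library, and the log2 fold change was 1.93 (SE 0.27, adjusted p = 2.28e-05 from edgeR's quasi-likelihood test). A weaker site 891821 bp away moved the same way, with 2.89 ± 0.62 CPM in adults and 1.10 ± 0.51 CPM in P10 islets (SD, n = 3) and a log2 fold change of 1.36 (SE 0.40, adjusted p = 0.0294 from the edgeR test).

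Of the 2 other Up sites in the range from 500 to 900 kb, 1 was among the clearest of the gene. It lies 614989 bp from the start (chr1:35934884-35935278) and held 9.85, 6.23 and 11.2 CPM in adults and 4.14, 1.57 and 2.80 CPM in P10 islets. The groups were apart, and the log2 fold change was 1.65 (SE 0.32, adjusted p = 0.000909 from the edgeR test). At the other, 824604 bp away, adult replicate 5 fell into the P10 range, and the call (log2 fold change 0.69) was lost without adult replicates 4 or 6 or P10 replicates 1 or 2 (0.52 to 0.62).

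The Down site of *Irx1* lay 990866 bp downstream (chr1:36310761-36311077). It held 4.61, 2.82 and 5.29 CPM in adults and 6.18, 8.77 and 6.87 CPM in P10 islets. All adults were lower, with a log2 fold change of -0.78 (SE 0.29, adjusted p = 0.0911 from edgeR's quasi-likelihood test), and the call was lost without adult replicate 5 (-0.56) or P10 replicate 2 (-0.65).

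**Figure D5:**
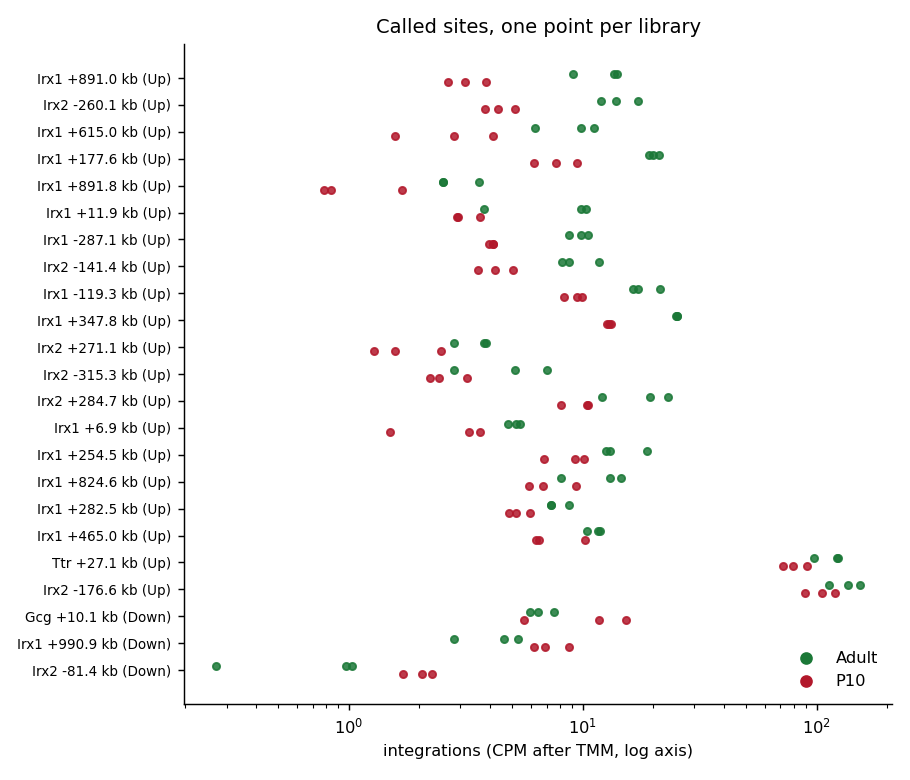
Integrations (CPM after TMM scaling, log axis) in each library at the 20 Up and 3 Down ACS of the alpha cell genes, named by gene and distance from the gene start in kb (+ downstream, - upstream) and ordered by fold change. Adult (green) and P10 (red) points were apart at 17 of the 20 Up sites and 2 of the 3 Down sites; with total reads as library sizes, 2 of the 87 sites were Up and 42 Down, against 1.05% and 60.7% of all ACS.

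Of the 20 Up calls, 13 also passed an FDR under 0.05, and 11 held whichever library was omitted. None of the 3 Down calls held in all of these fits, and 1 passed an FDR under 0.05. The shares of all ACS that did so are not given here, so these counts cannot be set against all ACS. Of the 50 sites with a mean of at least 50 counts per library, 17 were Up and 2 Down, where 17.3% of all ACS at that depth were Up and 6.17% Down. None of the 8 sites with a mean under 20 counts was called, where 0.482% of all ACS of so few counts were Up and 5.60% Down, and their median SE of 0.49 on the log2 scale was larger than the 0.26 of the deeper sites.

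Summed over all sites of a gene, the integrations of *Irx1* were 302, 276 and 306 CPM in adults and 194, 210 and 228 CPM in P10 islets, with no overlap. Those of *Irx2* were 380, 311 and 351 against 299, 254 and 296 CPM, and those of *Ttr* 162, 140 and 179 against 139, 112 and 124 CPM. The adult values of both were all above the P10 values, by a small margin. After TMM scaling the sum over all ACS was itself higher in every adult than in every P10 library, with a log2 ratio of the means of 0.10, so this order alone is not particular to a gene. The log2 ratio was 0.49 for *Irx1*, 0.29 for *Irx2* and 0.35 for *Ttr*. Those of *Gcg* were 41.5, 37.8 and 37.4 against 52.8, 35.8 and 48.1 CPM, with overlap and a log2 ratio of -0.23. No test was made of these sums, in which the strongest sites count most.

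The other Iroquois genes, *Irx3*, *Irx4*, *Irx5* and *Irx6*, are homeodomain factors of the same family, and *Irx4* lies beside *Irx2*. Of their 37 sites, 19 of which were listed for *Irx4*, 11 (29.7%) were Up and 1 (2.70%) Down, against 12.3% and 6.63% of all ACS. The median log2 fold change of the 37 was 0.29. It turned to -0.55 with total reads as library sizes but was above the median of all ACS by 0.19 to 0.44 in every fit made. *Irx3* had 4 Up sites of 7, with the largest change 96569 bp upstream (6.84 ± 0.90 CPM in adults, 2.59 ± 0.22 CPM in P10 islets, SD, n = 3; log2 fold change 1.40, adjusted p = 0.00173 from the edgeR test). *Irx4* had 4 Up and 1 Down of 19, *Irx5* 2 Up of 7 and *Irx6* 1 Up of 4.

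Of 11 further genes of the alpha cell programme, 10 had ACS, while *Peg3* had none. Of their 143 sites, 16 (11.2%) were Up and 14 (9.79%) Down, against 12.3% and 6.63% of all ACS. The median of this list was -0.09, and it lay below that of all ACS in every fit made, by -0.12 to -0.03. Calls went both ways within the list. *Pou3f4*, a POU-domain factor of alpha cells, had 3 Down of 9, *Fap* 2 Down of 2, and *Pcsk2*, the convertase that cuts proglucagon to glucagon, 2 Down of 16. *Etv1*, an ETS-family factor, had 5 Up and 2 Down of 31, and *Gc*, the vitamin D-binding protein, 2 Up and 1 Down of 10. *Smarca1* had 4 Up and 1 Down of 27, *Sphkap* 3 Up of 25 and *Slc7a2* 1 Up of 6. *Tm4sf4* had 1 Up and 1 Down of 10, and *Slc38a5* 2 Down of 7.

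Sites of marker genes of other cells were read in the same libraries. Summed CPM over the sites of 5 endothelial genes was 390 to 470 in adults and 350 to 361 in P10 islets, with 10 Up and 1 Down of 55 sites and a log2 ratio of the means of 0.32, against the 0.10 of all ACS. The sums of the duct list (244 to 277 against 212 to 236 CPM), the acinar list (363 to 392 against 338 to 361 CPM) and the mesenchymal list (322 to 342 against 306 to 317 CPM) were also higher in every adult library than in every P10 library. Their log2 ratios were 0.26, 0.13 and 0.09, so those of the acinar and mesenchymal lists were close to that of all ACS. Those of beta cells (1065 to 1256 against 1008 to 1322 CPM), delta and PP cells (248 to 320 against 263 to 306 CPM), immune cells (29.3 to 35.2 against 30.5 to 38.5 CPM) and the other alpha cell genes (999.95 to 1157 against 1041 to 1139.8 CPM) overlapped. Called sites numbered 17 Up and 13 Down of 105 for beta cells, 2 and 5 of 25 for delta and PP cells, 4 and 4 of 52 for acinar cells, 4 and 5 of 38 for duct cells, 0 and 1 of 9 for immune cells, and 3 and 4 of 43 for mesenchymal cells. Of the 55 endothelial sites, 28 were listed for *Cdh5*, with 6 of the 10 Up calls. *Kdr* had 3 Up of 11 and *Flt1* 1 Up of 4, while *Tek* had 0 calls at 5 sites and *Pecam1* 1 Down of 7. Of the 52 acinar sites, 40 were listed for *Ptf1a*, with 24 positive and 16 negative fold changes. *Bhlha15* had 2 of each sign. The fold changes were all negative at *Cpa1* (2 sites), *Cpb1* (1), *Rbpjl* (3) and *Prss1* (2, both Down). No site was listed for *Mafa* and *G6pc2* (beta), *Ppy* (PP), *Cel* and *Amy2a3* (acinar), *Cd68* (immune) and *Acta2* (mesenchymal). The part of these cells in the Iroquois and *Ttr* results was not tested.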

How the data were processed

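ATAC-seq was analysed in 6 libraries of unsorted islet cells, 3 Adult and 3 P10, grouped by their titles. The authors aligned reads to Rn5 with BWA 0.7.13, discarded those of mitochondria or of low mapping quality, ran MACS2 2.1.1 on the samples of each age together, merged both peak sets and deposited the counts of Tn5 integrations in each ACS, whole numbers without normalization. Removal of PCR duplicates is not given in the sources used here, so errors cover counting and replicate spread as they stand in the counts. The deposited log2 fold change and log2 CPM, the deposited F score, and the deposited p-value and FDR of the authors' own comparison were not used. The nearest gene, class and distance are theirs.

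Of 101941 entries, 338 repeated an ACS, and each of the 101603 distinct ACS entered once, with no filter on low counts. The test was the quasi-likelihood F test of edgeR 4.0.16 in R 4.3.3 with TMM library sizes (factors 0.93 to 1.04), age as the only term and Benjamini-Hochberg adjustment over all ACS. The SE was taken as the log2 fold change over the square root of F. The script was tested on simulated counts. Depth was 7916919 to 21168463 integrations per library, which limits sites of few counts most.

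The named sites were, per gene, the TSS-class sites or else the one nearest to the start, every called site, and the 2 with the highest mean CPM. The remaining *Gcg* and *Ttr* sites and the *Irx2* site 11292 bp from the start, outside this rule, were added after their values had been seen. The members and all lists were chosen with earlier results of these data known, and some genes of the lists are not reported here. Alternatives were limma 3.58.1 voom, DESeq2 1.42.0, other library sizes, cyclic loess, count filters, an FDR under 0.05, every entry kept and leaving out each library. Promoters were matched by symbol, 4 of 4.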

Additional observations from a re-analysis of the deposited data

How the results depend on the processing

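Of 37 fold changes (all *Gcg* and *Ttr* sites, the TSS-class and called sites and the 3 strongest of each gene), 37 kept their direction and their side of the limits with every listed entry kept and with the expression filter (minimum count 10, total 15), 36 with median-of-ratios size factors, 35 with limma voom, 34 with DESeq2, and 32 each with column sums and cyclic loess. The uncalled *Gcg* site 10566 bp from the start, near 0, turned negative with limma voom (-0.0073), column sums (-0.049), cyclic loess (-0.14) and sites of at least 50 counts (-0.035), and the *Ttr* site 9222 bp away with column sums (-0.0059) and cyclic loess (-0.012). An FDR under 0.05 in place of the study's limits left 13 sites Up and 1 Down, with no share of all ACS given here at that limit. When library sizes were taken from total reads, 2 sites were Up and 42 Down, and the log2 fold changes at 6 Up sites turned negative. These were the *Irx1* sites 254464 (-0.10), 282493 (-0.26), 465004 (-0.26) and 824604 bp (-0.13) from the start, the *Irx2* site 176625 bp away (-0.50) and the *Ttr* site 27150 bp away (-0.35). At the uncalled sites of *Gcg* 10566 bp (-0.81), *Irx2* 11292 bp (-0.61) and *Ttr* 9222 bp (-0.78) from the start, a small positive value became a Down call, and the uncalled *Gcg* site 17692 bp (-0.54) and *Ttr* site 25422 bp (-0.52) away also turned negative. Of the 37 fold changes, 9 at uncalled sites kept their sign and became calls, among them the already negative *Gcg* start (-1.08, Down). Under that scaling 60.7% of all ACS were Down. Leaving out 1 library gave 12 to 20 Up and 2 to 4 Down sites among all sites of the alpha cell genes. The 12 Up sites came without P10 replicate 2, where 7.85% of all ACS were Up in place of 12.3%. Of the 37 fold changes, 6 at uncalled sites took either sign in these fits. They were *Gcg* 10566 bp (-0.21 to 0.23) and 12709 bp (-1.03 to 0.060), and *Ttr* 9222 bp (-0.11 to 0.20) and 16453 bp (-0.47 to 0.035). The others were the *Irx1* start (-0.18 to 0.039) and the *Irx2* start (-0.10 to 0.10). Uncalled Iroquois sites outside the 37 also took either sign. Examples were *Irx1* 206818 bp (-0.31 to 0.24) and 193307 bp (-0.19 to 1.12), and *Irx2* 160161 bp (-0.34 to 0.41). Sites with a mean of at least 50 counts, fitted alone, gave 14 Up and 2 Down of 50. In that fit 15.4% of all ACS were Up and 11.8% Down. No paired analysis was possible because the adult libraries are numbered 4 to 6 and the P10 libraries 1 to 3, with no number in common. Sites under 20 counts had the largest errors, and a missing call there says little.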

Other observations

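The genes beside the 4 alpha cell genes were read in the same way. They were the 2 nearest listed genes on each side, less any of the 4 genes themselves. This left 3 genes each beside *Irx1* and *Irx2*. Their 159 sites include those of *Irx4* and *Fap*, which were also counted in lists above. Of the 159, 42 (26.4%) were Up and 9 (5.66%) Down, against 12.3% and 6.63% of all ACS. Most of these Up sites were listed for *Med10*, a subunit of the Mediator complex, whose 74 sites share the stretch of chromosome 1 beyond *Irx1* and gave 22 Up and 3 Down, with log2 fold changes from -1.01 to 2.16. *Ube2ql1*, a ubiquitin-conjugating enzyme gene, had 3 Up of 8, and *Mrpl36*, beside *Irx2*, 2 Up of 7. Beside *Gcg*, 5 of 23 sites (21.7%) were Up and 4 (17.4%) Down, and 17 of the fold changes were negative. There *Slc4a10* had 3 Up of 7 and *Dpp4*, the protease that inactivates glucagon-like peptide 1, had 2 Up and 1 Down of 10. *Fap* had 2 Down of 2 and *Ifih1* 1 Down of 4. Beside *Ttr*, *B4galt6* had 3 Up of 11, *Dsg3* 2 Up of 9, *Trappc8* 1 Up and 1 Down of 4, and *Zfp397* 0 of 4.

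Each start site, or for *Ttr* the nearest site, was set beside 9769 TSS-class sites of other genes by Pearson's r of log2 CPM over the 6 libraries. The most alike were *Sox12* (r = 0.990), *Sema5b* (0.986) and *Pex5l* (0.983) for *Gcg*, *Cyp4f6* (0.992), *Gnb2* (0.985) and *Tgfbr2* (0.973) for *Irx1*, *Zfp422* (0.962), *Bivm* (0.954) and *Olfm2* (0.947) for *Irx2*, and *Crb1* (0.993), *Dennd5a* (0.971) and *Lasp1* (0.965) for *Ttr*. With 6 libraries and this many sites, values of this size are a description of the libraries.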
